A study of Homo sapiens with 4 samples.

Results

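Nuclei that the deposited annotation names as enteric neurons were compared between ganglioids dated day 38 and ganglioids dated day 42. Of the 14812 annotated nuclei in the 4 samples, 6557 carried this name, and their unique molecular identifiers (UMIs, 1 per captured RNA molecule) were summed per sample. Ganglioids are clusters of neurons, precursors and other crest-derived cells that float in the culture medium, and were derived here from H9, an established human embryonic stem cell line. Both days held 1 control sample and 1 sample that had received PP121, a kinase inhibitor, at 2 µM between day 15 and day 20. The series' design text describes a separate differentiation for every sample, whereas the sample labels number only 2 differentiation replicates. The sums held 11088890 UMIs from 1250 nuclei (control) and 8755285 UMIs from 976 nuclei (PP121) on day 38, and 18951821 UMIs from 2301 nuclei (control) and 16833351 UMIs from 2030 nuclei (PP121) on day 42. Both samples of day 42 carry number 1 and both of day 38 number 2. The days come from a column of the deposited annotation, the labels give none, and the study's text dates all ganglioids to a single day, so that day 38 and day 42 stand here for what that column says. The day and the replicate therefore cannot be told apart, and every difference below is one between 2 and 2 samples that differ in both.

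Enteric neurons arise from neural crest cells that colonize the gut. Transcription factors such as HAND2, and the receptor RET with its co-receptor GFRA1, are known to guide crest-derived precursors towards an autonomic or enteric neuronal fate. Neurons then pass from a phase of axon growth and guidance to one of synapses, receptors and ion channels, while the transmitter they use is set by a small number of synthesis enzymes and transporters. Against these markers the annotated nuclei were neuronal. All 11 general neuron markers examined had their highest level there among the annotated classes, for example TUBB3 at 194 CPM (UMIs scaled to a common library size) against 78.2 CPM in progenitors and 38.4 CPM in mesenchymal nuclei. Markers that define enteric neurons were scarce. Over the 4 samples RET held 83 UMIs and NOS1 320 UMIs, and HAND2 and TLX2 held 3 UMIs each. VIP was at 0 UMIs, which allows up to 0.0539 CPM (3 UMIs over the 4 samples, counting error only). The nuclei are called neurons below, by their annotation and general markers. The annotation's own subtype column names some of them Non-Neuronal, 1.28% (control) and 6.25% (PP121) on day 38, and 0.695% and 7.04% on day 42. They stay in the sums, and the values without them are given where they change a call.

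The annotated neurons differed between the days at many genes. Of 21243 genes tested, 2015 passed (9.49%, edgeR's quasi-likelihood test with treatment as a block and Benjamini-Hochberg adjustment at 0.05), 781 higher on day 42 (3.68%) and 1234 lower (5.81%). Changes of at least 2-fold made up 451 of these, 176 higher and 275 lower. The count rests on the treatment block: without it 0 genes passed in the same test and 1574 had an unadjusted p under 0.05, against 4849 with it. Leaving out 1 sample, also without the block, left between 2 genes (without the control of day 42) and 271 genes (without the control of day 38), with 27 without PP121 of day 42 and 3 without PP121 of day 38. DESeq2's Wald test, with the block, called 453. Without the nuclei of the Non-Neuronal subtype, an alternative chosen after seeing the data, 1429 genes passed, 1413 of them among the 2015.

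Control and PP121 samples gave 2 separate readings of the same difference. Among the 11340 genes with a mean of at least 10 CPM, day 42 minus day 38 had the same sign in both treatments for 69.7%, with a Pearson's r across genes of 0.606; genes are not independent replicates, and both pairs share the same differentiation numbers. Of the genes that passed, 6 had opposite signs in the 2 treatments, and for 445 the samples of the 2 days overlapped. Over all genes tested, both samples of one day lay above both of the other for 38.2%.

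**Figure D1:**
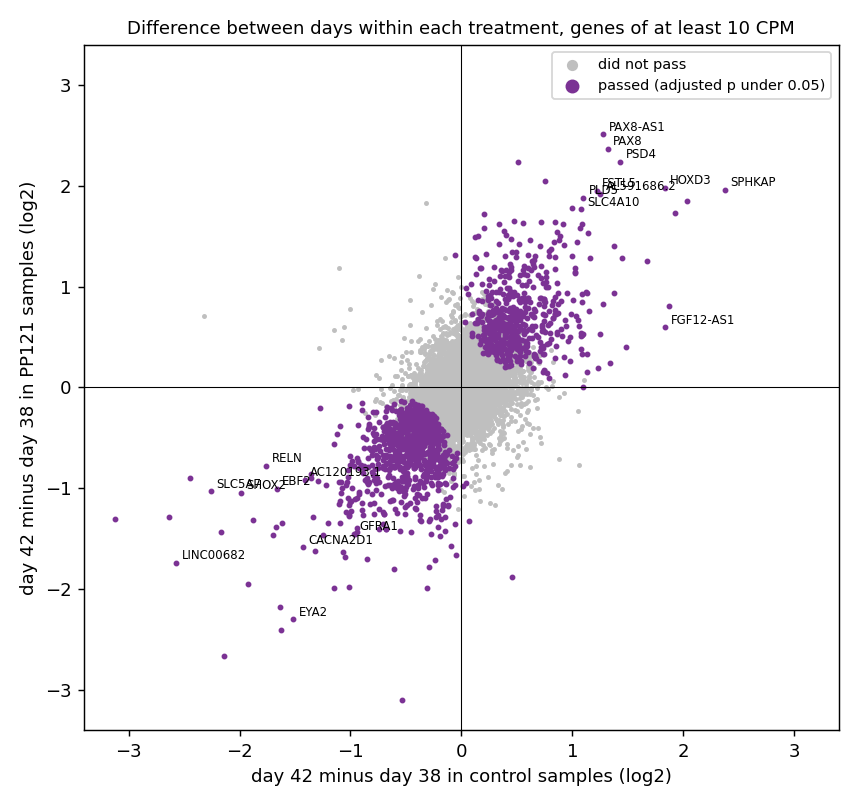
Each point is 1 of 11340 genes with a mean of at least 10 CPM in annotated neurons; the horizontal axis is the log2 difference between day 42 and day 38 in the control samples and the vertical axis the same in the PP121 samples. Genes that passed (purple) lie mostly in the upper right and lower left, with PAX8, PSD4, HOXD3 and SPHKAP at the upper end and EYA2 and LINC00682 at the lower end.

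Among genes whose level was highest in the neurons, the largest rises towards day 42 were in SPHKAP, HOXD3 and 3 neighbouring transcripts around PAX8. SPHKAP encodes an anchoring protein of protein kinase A. Its level was 5.36 CPM (control) and 3.32 CPM (PP121) on day 38, and 28.5 CPM and 13.3 CPM on day 42. All 4 values were low, the days did not overlap, and the log2 fold change was 2.25 ± 0.196 (SE, adjusted p = 4.58e-09). PAX8 encodes a paired-box transcription factor of inhibitory neurons of the hindbrain and spinal cord. It stood at 122 CPM (control) and 43.9 CPM (PP121) on day 38, and rose to 305 CPM and 226 CPM on day 42 (log2 fold change 1.81 ± 0.14, adjusted p = 9.08e-10). Neurons with a PAX8 UMI made up 27.1% (control) and 11.3% (PP121) on day 38, and 55.3% and 42.2% on day 42. After each nucleus was thinned to 2000 UMIs these shares were 15.4% and 5.13% on day 38, and 33.5% and 25.8% on day 42. Both samples of day 42 were above both of day 38 in level and in share.

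PAX8-AS1 and PSD4 rose with PAX8, by 1.87 ± 0.152 and 1.79 ± 0.127 on the log2 scale. In RefSeq's annotation of GRCh38.p14, PAX8-AS1 (chr2:113235527-113267023) lies inside PAX8 (chr2:113215997-113278921), and PSD4 (chr2:113173971-113209391) ends 6605 bases before it. Whether the counting used strand is not given in the sources used here, so UMIs of PAX8 and PAX8-AS1 may be divided between them in an arbitrary way. HOXD3, a homeobox gene of segmental identity, had 13.8 CPM (control) and 7.12 CPM (PP121) on day 38, and 49.5 CPM and 28.4 CPM on day 42 (log2 fold change 1.91 ± 0.145). HOXD4, which shares 698 bases with it in the same annotation, held 4 UMIs in each sample of day 38, and 42 UMIs (control) and 27 UMIs (PP121) on day 42.

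The other neuron-led rises were at genes of mixed function. PLD5 had 330 CPM (control) and 144 CPM (PP121) on day 38, against 707 CPM and 532 CPM on day 42, the highest level among the 10. FSTL5, which encodes a secreted follistatin-like protein, rose by 1.57 ± 0.131 on the log2 scale, and SLC4A10, a sodium bicarbonate transporter of neurons, by 1.39 ± 0.123. The long non-coding RNAs AL591686.2 and FGF12-AS1 rose by 1.56 ± 0.122 and 1.28 ± 0.211. In all 10 genes both samples of day 42 were above both of day 38, which the rule for naming genes required.

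The 10 neuron-led genes that fell most towards day 42 included transcriptional regulators and proteins of the cell surface. EYA2, a transcriptional co-activator, was at 59.4 CPM (control) and 204 CPM (PP121) on day 38, and at 20.7 CPM and 41.3 CPM on day 42. SHOX2 and EBF2, transcription factors of subsets of peripheral and central neurons, fell by 1.46 ± 0.184 and 1.33 ± 0.131 on the log2 scale. CACNA2D1, an auxiliary subunit of voltage-gated calcium channels, was the most abundant gene of this set. It had 413 CPM (control) and 1195 CPM (PP121) on day 38, and 153 CPM and 398 CPM on day 42, a fall by 1.51 ± 0.0876. GFRA1, the co-receptor of RET for glial-derived neurotrophic factor, fell by 1.23 ± 0.132, and RELN, a secreted glycoprotein of neuronal positioning, by 1.22 ± 0.189. SLC5A7, which takes choline up into cholinergic terminals, had 20.4 CPM (control) and 13.3 CPM (PP121) on day 38, and 4.14 CPM and 6.43 CPM on day 42. The non-coding RNAs LINC00682 and AC120193.1 fell by 2.12 ± 0.195 and 1.16 ± 0.104.

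**Figure D2:**
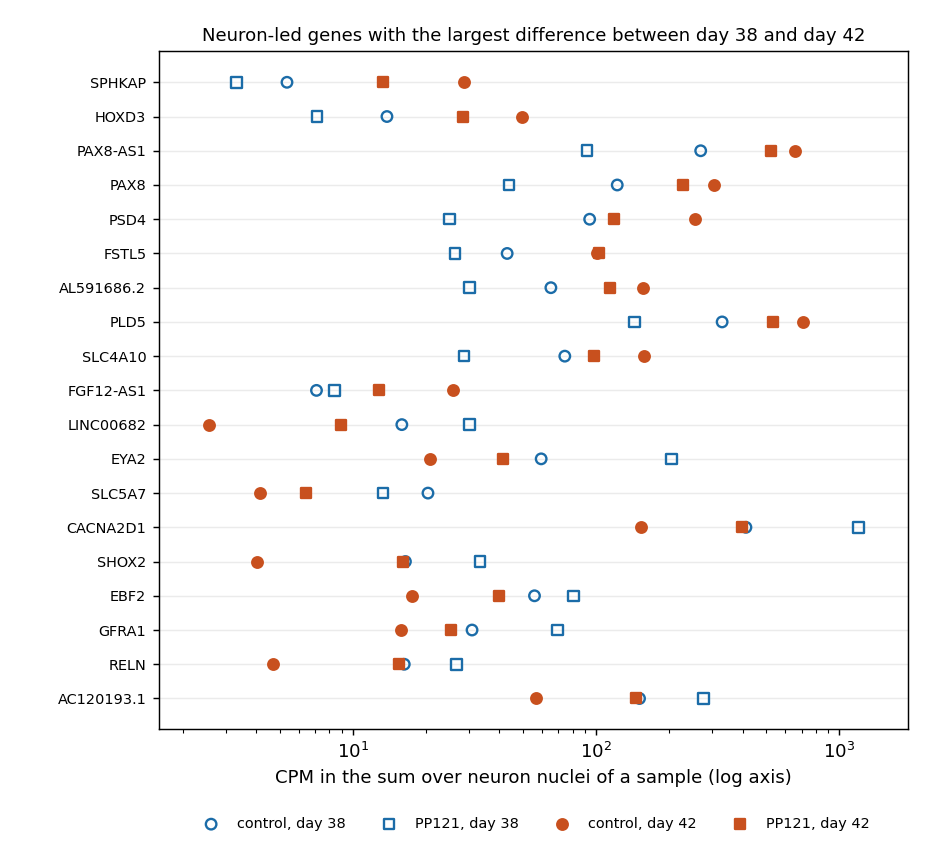
CPM on a log axis in each of the 4 samples for the 10 neuron-led genes that rose most and 9 of the 10 that fell most; circles are control and squares PP121, open blue is day 38 and filled orange day 42. In the upper 10 genes the filled symbols lie to the right of the open ones, and in the lower 9 to the left, with CACNA2D1, SHOX2, RELN and AC120193.1 nearly touching.

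Several of the largest falls over all genes were in genes that mesenchymal nuclei express far more. COL3A1, a fibrillar collagen, had 18.1 CPM (control) and 16.8 CPM (PP121) in neurons on day 38, and 3.99 CPM and 2.54 CPM on day 42, against 901 CPM in mesenchymal nuclei. ROR2, a receptor for WNT5A, fell by 2.10 ± 0.156, DLC1 by 1.70 ± 0.312 and SLIT3, a guidance ligand, by 1.95 ± 0.122 on the log2 scale, at 509 CPM, 485 CPM and 165 CPM in mesenchymal nuclei. The 10 neurons with most DLC1 UMIs held 82.4% (control) and 85.1% (PP121) of them on day 38, and DLC1 did not pass within glutamatergic or GABAergic neurons (adjusted p of 0.122 and 0.934). CASZ1 (fall by 1.95 ± 0.164) and AL161908.1 (fall by 1.75 ± 0.208) were at 4.65 CPM and 3.62 CPM there. Mesenchymal nuclei themselves made up 13.5% (control) and 14.5% (PP121) of annotated nuclei on day 38, against 0.934% and 0.719% on day 42.

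In the neuron sums the 13 mesenchymal markers together had, in CPM without TMM scaling, 200 CPM (control) and 230 CPM (PP121) on day 38, and 152 CPM and 164 CPM on day 42, and none of them was at 0. Of the 13, 6 were lower on day 42 and none higher (COL3A1, COL1A2, COL1A1, COL11A1, PRRX1 and TWIST1), beside 5.81% and 3.68% of all genes. The median log2 fold change over the list was -0.87 against 0.01 over all genes. The part of these markers in the other results was not tested beyond 1 alternative. With a mesenchymal profile subtracted from each sum, which removed 2.93% to 4.44% of UMIs, 1658 genes passed, 1626 of them among the 2015. COL3A1, ROR2, DLC1, COL1A1, COL1A2, PRRX1 and TWIST1 were not among the genes tested after the subtraction, whereas SLIT3 still passed. The subtraction was scaled by the summed UMIs of the 13 markers in each neuron sum. RUNX2 alone held 1561 of 2877 such UMIs in the control of day 42 and 818 of 2014 in PP121 of day 38. It was at 82.4 CPM to 93.4 CPM in all 4 samples. The share removed is therefore not a measure of mesenchymal RNA in the neurons. Whether genes that left the test were subtracted too far was not tested. Genes at least 3 times higher in mesenchymal nuclei than in neurons made up 16.9% of those that fell, 3.07% of those that rose and 6.14% of all tested.

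Other features of the neurons moved with the day. Their part in the results below was examined only by fits to the neurons that carry 1 given identity, and a neuron can carry several. The first was their makeup by transmitter identity, which the study's authors assigned from imputed expression. The share of neurons with a glutamatergic identity was 44.2% (control) and 66.1% (PP121) on day 38, and 25.0% and 36.2% on day 42. GABAergic shares went the other way, from 26.7% and 17.3% on day 38 to 45.2% and 45.5% on day 42. Cholinergic shares were 20.4% and 10.2% on day 38, and 33.6% and 33.2% on day 42. Serotonergic shares were higher on day 42 by a mean of 11.3 percentage points and nitrergic shares by 5.02, whereas catecholaminergic shares were lower by 14.1. None of the 6 identities overlapped between the days, and each reached an exact two-sided permutation p of 0.333, the smallest that 2 against 2 samples allow. With all annotated neurons as the denominator the nitrergic shares overlapped (18.4% and 9.32% on day 38, 19.5% and 17.6% on day 42, exact permutation p = 0.667).

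The second was the deposited subtype. In control samples subtype EN 7 held 9 of 1250 neurons on day 38 and 253 of 2301 on day 42, and EN 5 held 4.24% and 12.95%. EN 4, EN 6 and EN 8 went the other way, from 17.0%, 12.4% and 9.44% to 7.87%, 5.48% and 4.30%. In PP121 samples, whose subtypes have other names, EN C held 3.69% on day 38 and 12.9% on day 42, whereas EN F held 18.6% and 6.65% and EN H 23.9% and 14.9%. Both annotations rest on the expression of the same nuclei, so they are descriptions. In a sum over such a mixture, fewer neurons of a kind and less RNA per neuron cannot be told apart. The fit was therefore repeated on all neurons that carry 1 given identity, an alternative chosen after seeing the data. The identities are not exclusive, so these neurons can carry others too, and their makeup was not held fixed. It called 940 genes in glutamatergic neurons, 810 of them among the 2015, and 364 genes in GABAergic neurons, 298 of them among the 2015.

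**Figure D3:**
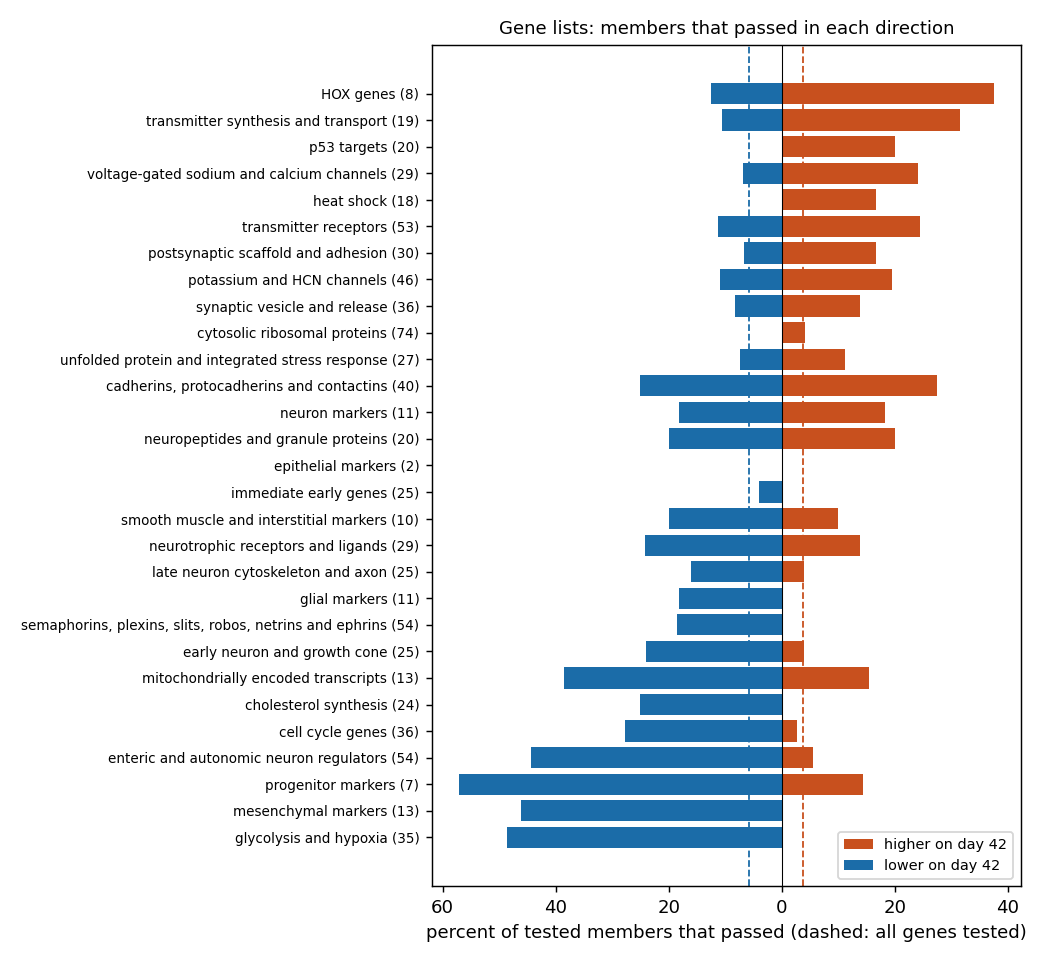
Percent of the tested members of 29 gene lists (number tested in parentheses) that passed, higher on day 42 to the right in orange and lower to the left in blue; dashed lines mark 3.68% and 5.81%, the same shares over all genes tested. Regulators, glycolysis and hypoxia, cell cycle and mesenchymal markers extend to the left, and transmitter synthesis, transmitter receptors and calcium and sodium channels mainly to the right.

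Regulators of enteric and autonomic neurons were lower on day 42. Of 54 tested members, 24 fell and 3 rose, against 5.81% and 3.68% of all genes, and the median log2 fold change of the list was -0.52. ISL1, a LIM homeobox factor of sensory, motor and autonomic neurons, held 24 UMIs (control) and 10 UMIs (PP121) on day 38, and 5 UMIs and 1 UMI on day 42 (adjusted p = 0.000269). PRDM12, a factor of pain-sensing neurons, had 1.82 CPM and 2.85 CPM on day 38 and 0.563 CPM and 0.413 CPM on day 42. GATA3, a factor of sympathetic neurons, was at 1.09 CPM and 2.13 CPM on day 38, and at 0.153 CPM and 0.649 CPM on day 42. These 3 were rare in every sample. CASZ1, a zinc finger factor, had 18.3 CPM (control) and 45.0 CPM (PP121) on day 38, and 5.78 CPM and 9.80 CPM on day 42.

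The most abundant member, the homeobox gene MEIS2, had 1989 CPM (control) and 2671 CPM (PP121) on day 38, and 1268 CPM and 1751 CPM on day 42, a fall by 0.63 ± 0.0813 on the log2 scale. ZFHX3, the next in level, had a log2 difference of -0.23 ± 0.0829 and did not pass (adjusted p = 0.0765). The 3 members that rose were LHX1 (0.51 ± 0.110), a LIM homeobox factor, BCL11A (0.60 ± 0.0933), a zinc finger repressor, and MYT1L (0.31 ± 0.0892), a repressor of non-neuronal genes whose samples overlapped between days. They were chosen after their values were seen. Within glutamatergic neurons 17 of 48 regulators fell and 2 rose, and within GABAergic neurons 12 of 41 fell and none rose, against 3.22% and 1.95% of all genes in the first fit and 1.25% and 0.845% in the second.

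**Figure D4:**
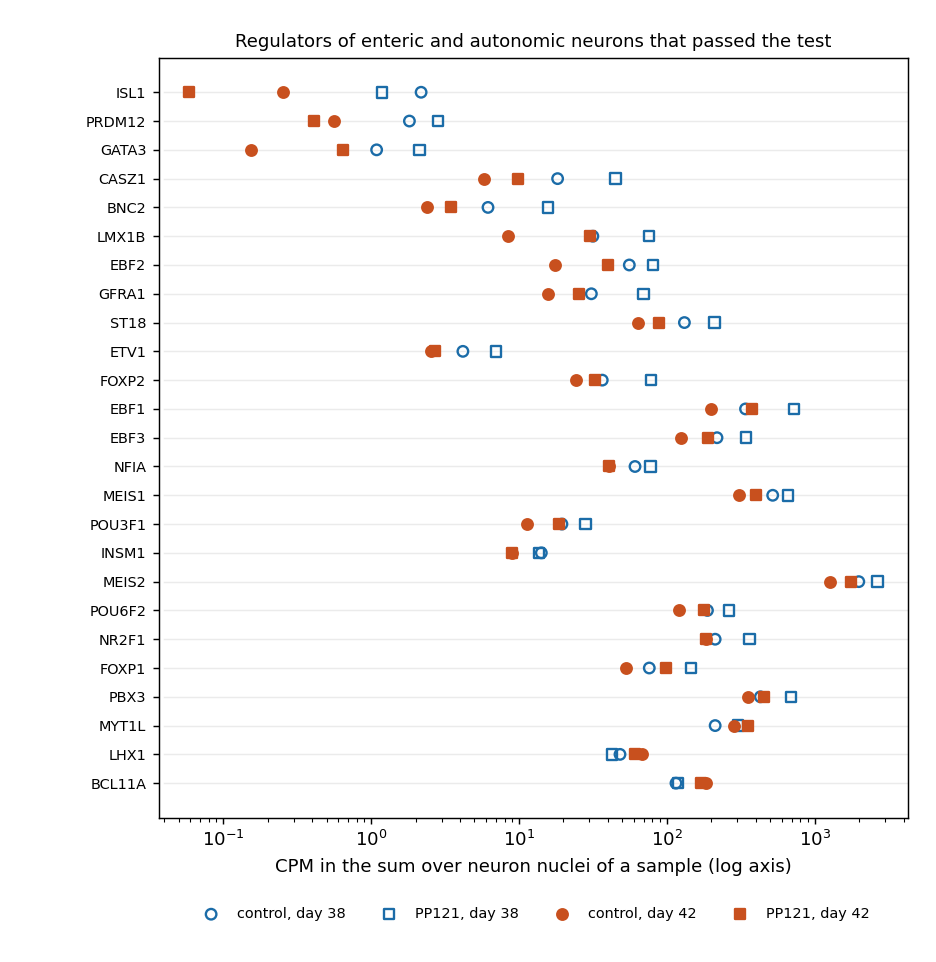
CPM on a log axis in each of the 4 samples for 25 of the 27 regulators that passed, ordered by log2 fold change; open blue symbols are day 38 and filled orange day 42, circles control and squares PP121. Filled symbols lie to the left of the open ones of the same shape for the upper 22 genes, and to the right for MYT1L, LHX1 and BCL11A.

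Of 19 genes that make and move transmitters, 6 rose and 2 fell, against 3.68% and 5.81% of all genes, with a median log2 fold change of 0.16. GAD2, which makes GABA from glutamate, had 60.6 CPM (control) and 34.4 CPM (PP121) on day 38, and 115 CPM and 106 CPM on day 42 (log2 fold change 1.25 ± 0.125, adjusted p = 5.88e-08). SLC32A1, which loads GABA and glycine into vesicles, rose by 0.96 ± 0.199. SLC6A5, the glycine transporter of glycinergic terminals, was the most abundant of the list, with 335 CPM (control) and 253 CPM (PP121) on day 38, and 412 CPM and 527 CPM on day 42. GAD1 and CHAT, the enzyme of acetylcholine synthesis, also rose (chosen after their values were seen). CHAT rose from 6.05 CPM to 17.4 CPM in PP121 samples, against 16.9 CPM and 18.8 CPM in control samples. SLC17A6, which loads glutamate into vesicles, had 39.0 CPM (control) and 60.3 CPM (PP121) on day 38, and 17.6 CPM and 40.8 CPM on day 42. Its days overlapped, and it was named after its values were seen.

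These genes also help to define the identities, whose shares differed between the days. Within GABAergic neurons GAD2 differed by 0.19 on the log2 scale (adjusted p = 0.553), SLC32A1 by -0.05 (adjusted p = 0.958) and SLC6A5 by -0.43 (adjusted p = 0.0822). Within glutamatergic neurons GAD2 was higher on day 42 by 1.10 (adjusted p = 1.25e-07). PAX8 was higher on day 42 within both, by 1.73 in glutamatergic and 0.66 in GABAergic neurons (adjusted p of 5.24e-14 and 0.0143). PLD5, AL591686.2 and FGF12-AS1 did not pass within GABAergic neurons (0.30, 0.38 and 1.00, adjusted p of 0.33, 0.216 and 0.173). The remaining neuron-led rises named above passed there. Within glutamatergic neurons these rises passed, except that of SPHKAP (1.29, adjusted p = 0.0761). Among the neuron-led falls named above, SHOX2 and EBF2 did not pass within GABAergic neurons (-0.55 and -1.16, adjusted p of 0.8 and 0.0734). SLC5A7 was not tested there, and the other falls named above passed. All of these falls passed within glutamatergic neurons.

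Receptors for transmitters were mixed, with 13 of 53 tested members higher on day 42 and 6 lower, beside 3.68% and 5.81% of all genes. Ionotropic and metabotropic glutamate receptors made up most of the rises. GRIN2B, a subunit of the NMDA receptor, had 64.8 CPM (control) and 36.0 CPM (PP121) on day 38, and 99.9 CPM and 99.6 CPM on day 42. GRM5, a metabotropic glutamate receptor, held 143 UMIs and 125 UMIs on day 38, and 620 UMIs and 449 UMIs on day 42, a rise by 1.07 in log2 CPM. ADRA1A and ADRA1B, adrenergic receptors, rose by 1.26 ± 0.200 and 1.24 ± 0.342. Within GABAergic neurons GRIN2B differed by 0.27, ADRA1A by 0.60 and ADRA1B by 0.62 (adjusted p of 0.361, 0.201 and 0.637). GRM5 was higher there by 1.765 (adjusted p = 0.000415). Within glutamatergic neurons each of these receptors passed and was higher on day 42. In DESeq2's Wald test GRIN2B and ADRA1A did not pass (adjusted p of 0.226 and 0.659), whereas GRM5 did. GRIA2, among the most abundant, differed by 0.19 ± 0.0850 without passing. The 6 that fell were P2RX3, a purine receptor of sensory neurons, the nicotinic subunits CHRNA5, CHRNA7 and CHRNB4, and the kainate receptor subunits GRIK1 and GRIK2, which were named after their values were seen.

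Among voltage-gated sodium and calcium channels 7 of 29 rose and 2 fell, beside 3.68% and 5.81% of all genes, so that the falls were near the background. CACNA1D rose from 104 CPM (control) and 50.05 CPM (PP121) to 149 CPM and 109 CPM, and CACNA2D3 rose by 0.65 ± 0.0918, but differed by -0.33 within GABAergic neurons. The 2 that fell were auxiliary subunits, CACNA2D1 and the low-level CACNG5. Of 46 potassium and HCN channels, 9 rose and 5 fell. KCND2, which carries A-type current, had 82.8 CPM and 70.9 CPM on day 38, and 136 CPM and 164 CPM on day 42. KCNJ6 rose by 0.81 ± 0.120 and KCNJ3 fell by 0.93 ± 0.245, both subunits of G-protein-gated channels. KCNC2 held 5 UMIs and 3 UMIs on day 38, and 48 UMIs and 15 UMIs on day 42 (adjusted p = 0.0139).

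Of 36 genes of synaptic vesicles and release, 5 rose and 3 fell, and of 30 postsynaptic genes 5 rose and 2 fell, beside 3.68% and 5.81% of all genes. SV2C, a vesicle protein, had 43.5 CPM (control) and 28.8 CPM (PP121) on day 38, and 80.0 CPM and 79.6 CPM on day 42. Within GABAergic neurons SV2C differed by 0.15 (adjusted p = 0.64), and within glutamatergic neurons by 0.95 (adjusted p = 0.000206). NRXN3, the most abundant with up to 6463 CPM, rose by 0.46 ± 0.0885, but differed by -0.36 within GABAergic neurons. LRRTM4 and IL1RAPL1, adhesion proteins of the synapse, rose by 0.81 ± 0.0985 and 0.80 ± 0.0946, and DLGAP2, a scaffold protein, by 1.02 ± 0.111. Genes of early neurons and growth cones included 6 of 25 that fell, led by NEUROD4 (fall by 1.70 ± 0.221), a factor of early neurons, and 1 that rose. GAP43, a growth cone protein, had 145 CPM and 238 CPM on day 38 and 106 CPM and 141 CPM on day 42. NEUROD4 and GAP43 passed within glutamatergic neurons but not within GABAergic neurons (-2.04 and -0.36, adjusted p of 0.138 and 0.369). Genes of the late neuron cytoskeleton and axon included 4 of 25 that fell and 1 that rose (SPTBN4), with a median log2 fold change of 0.05. Among those that fell were the neurofilament genes NEFM and NEFL, by 1.11 ± 0.109 and 0.56 ± 0.121.

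Guidance molecules passed in 1 direction. Of 54 semaphorins, plexins, slits, robos, netrins and ephrins tested, 10 were lower on day 42 and none higher, beside 5.81% and 3.68% of all genes, with a median of -0.17. After SLIT3 the largest falls were in SEMA3C (1.56 ± 0.290), SEMA6A (0.78 ± 0.0966) and EPHA4 (0.76 ± 0.115). SEMA3C was also higher in mesenchymal nuclei, at 92.6 CPM against 4.66 CPM in neurons. The netrin receptor DCC had 1854 CPM (control) and 3579 CPM (PP121) on day 38, and 1262 CPM and 2186 CPM on day 42. It was lower on day 42 within each treatment, although the days overlapped. ROBO2 did not pass (log2 difference -0.19 ± 0.112). Cadherins, protocadherins and contactins went both ways, with 11 of 40 higher, among them PCDH10 (0.88 ± 0.131) and PCDH9 (0.34 ± 0.0862, and -0.19 within GABAergic neurons), and 10 lower, among them CNTN3 (fall by 1.28 ± 0.203), PCDH18 (fall by 1.17 ± 0.224) and CDH20 (fall by 0.87 ± 0.167).

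Neuropeptides passed in both directions, 4 of 20 each way, beside 3.68% of all genes higher and 5.81% lower. TAC1, which encodes substance P, had 13.5 CPM (control) and 36.2 CPM (PP121) on day 38, and 4.14 CPM and 13.8 CPM on day 42, so that its days overlapped. Its fall passed within glutamatergic neurons (-1.17, adjusted p = 3.71e-05) but not within GABAergic neurons (-0.26, adjusted p = 0.904). SST, which encodes somatostatin, had 2.00 CPM and 2.85 CPM on day 38 against 6.80 CPM and 5.78 CPM on day 42. CARTPT passed (adjusted p = 0.0184), at 9 UMIs and 4 UMIs on day 38 and 72 UMIs and 13 UMIs on day 42, but its CPM in the PP121 sample of day 42 lay below that in the control of day 38, and it did not pass without the Non-Neuronal nuclei (adjusted p = 0.135). PAM, the most abundant of this list and the enzyme that amidates peptides, fell by 0.60 ± 0.0965. Of 29 neurotrophic receptors and ligands, 7 fell and 4 rose, beside 5.81% and 3.68% of all genes. The neuregulin receptor ERBB4 had 1194 CPM (control) and 2473 CPM (PP121) on day 38, and 697 CPM and 1409 CPM on day 42, lower within each treatment with days that overlapped. FGFR2 and NTF3 fell by 0.86 ± 0.130 and 0.89 ± 0.274, and NRG3 did not pass. Without the Non-Neuronal nuclei NTF3 did not pass (adjusted p = 0.0985).

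Genes of glycolysis and of the hypoxia response were lower on day 42. Of 35 tested, 17 fell and none rose, against 5.81% of all genes, with a median log2 fold change of -0.37. ENO1, the glycolytic enzyme enolase, had 101 CPM (control) and 179 CPM (PP121) on day 38, and 55.2 CPM and 103 CPM on day 42. HK2, a hexokinase, had 33.6 CPM and 63.8 CPM on day 38, and 17.6 CPM and 38.5 CPM on day 42. PFKFB4, a regulator of glycolytic flux, fell by 0.82 ± 0.0985, CA12, a carbonic anhydrase, by 0.87 ± 0.274, and P4HA1, a collagen prolyl hydroxylase, by 0.48 ± 0.0905. BNIP3L differed by -0.15 ± 0.0865 without passing. For HK2 and ENO1 the PP121 sample of day 42 lay above the control of day 38, so the fall was seen within each treatment only. Both samples of day 42 lay below both of day 38 for 11 of the 35 members, beside 18.4% of all genes. Within 1 identity 11 of 34 fell in glutamatergic and 10 of 34 in GABAergic neurons, beside 3.22% and 1.25% of all genes in those fits.

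Hypoxia-inducible factors bind a core motif, ACGTG, in promoters of many of these genes. RefSeq promoters (GRCh38.p14, the 250 bases before the annotated start) were found for 31 of the 35 members and searched for these 5 letters on both strands. The motif was present in 6 of the 17 members that fell, in 8 of the 14 that did not pass, and in 18.7% of 27300 promoters. Shown here are the 3 that fell and held more than 1 match, 5′ to 3′ on the strand of the gene, with the matches in capitals. HK2 is at chr2:74833877-74834126 on the plus strand, PGK1 at chrX:78103998-78104247 on the plus strand and BNIP3 at chr10:131981924-131982173 on the minus strand. In BNIP3 the matches of the 2 strands overlap in CACGTG.
HK2: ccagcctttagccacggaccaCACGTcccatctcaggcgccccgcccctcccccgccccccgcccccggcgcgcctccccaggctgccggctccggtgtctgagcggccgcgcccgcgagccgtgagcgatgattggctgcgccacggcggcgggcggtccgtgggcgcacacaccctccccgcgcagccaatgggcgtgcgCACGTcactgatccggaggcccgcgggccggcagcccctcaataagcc
PGK1: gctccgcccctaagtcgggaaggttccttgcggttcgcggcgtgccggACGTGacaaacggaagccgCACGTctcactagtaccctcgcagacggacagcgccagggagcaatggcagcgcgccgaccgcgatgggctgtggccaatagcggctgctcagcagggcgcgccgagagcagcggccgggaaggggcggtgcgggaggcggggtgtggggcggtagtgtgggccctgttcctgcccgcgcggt
BNIP3: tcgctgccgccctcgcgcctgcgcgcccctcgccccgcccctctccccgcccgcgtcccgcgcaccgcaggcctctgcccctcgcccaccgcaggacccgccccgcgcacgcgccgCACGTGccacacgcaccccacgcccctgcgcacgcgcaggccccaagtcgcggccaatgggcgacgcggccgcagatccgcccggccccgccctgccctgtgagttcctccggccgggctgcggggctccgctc
A match is a description of the letters and not of a factor bound there. PGK1, a glycolytic kinase, had 148 CPM (control) and 193 CPM (PP121) on day 38, and 107 CPM and 123 CPM on day 42. BNIP3, a mitochondrial protein of cell death and mitophagy, had 79.8 CPM and 123 CPM on day 38, and 55.7 CPM and 83.0 CPM on day 42. Both were named after their promoters were searched.

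Cell cycle genes were at low levels. Of 36 tested, 10 fell and 1 rose, beside 5.81% and 3.68% of all genes, with a median of -0.37. But without the nuclei of the Non-Neuronal subtype none fell and 1 rose, with a median of -0.13. MKI67, a marker of dividing cells, had 6.27 CPM (control) and 10.1 CPM (PP121) on day 38, and 2.71 CPM and 3.78 CPM on day 42, and ASPM fell by 0.97 ± 0.166. Without the Non-Neuronal nuclei MKI67 and ASPM had adjusted p of 0.112 and 0.565. None of 32 passed in nuclei of the deposited G1 phase, beside 1.47% of all genes higher and 2.53% lower in that fit, a choice that itself selects nuclei with low levels of such genes, and none passed within glutamatergic or within GABAergic neurons. Of 7 markers of progenitors, 4 fell (NFIA, PAX3, PAX7 and MKI67) and MEF2C rose, beside 5.81% and 3.68% of all genes. PAX3 had 164 CPM and 219 CPM on day 38 and 112 CPM and 171 CPM on day 42. The summed level of the 7, without TMM scaling as for the other marker sums, was between 418 CPM and 468 CPM in all 4 samples. Glial markers summed to 322 CPM (control) and 420 CPM (PP121) on day 38 and 255 CPM and 289 CPM on day 42. Of 11 tested, 2 fell (VIM and NES), beside 5.81% of all genes. Epithelial markers summed to between 8.22 CPM and 10.0 CPM, and neither of the 2 tested passed.

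Progenitors of the same samples were used to ask whether a difference between days was larger in neurons. In progenitors, 606 of 20260 genes passed (2.99%). Of the 2015 neuronal genes, 355 also passed in progenitors, 352 in the same direction. The interaction of day with class passed for 111 of 21787 genes (0.509%), 51 with a more positive difference in neurons and 60 with a more negative one. SPHKAP, TRHDE, a peptidase of thyrotropin-releasing hormone, ADAMTS18, a metalloproteinase, and LINC02144 rose in neurons and did not pass in progenitors, and the difference between the classes passed for each (adjusted p between 0.000691 and 0.0152). TRHDE had 36.5 CPM (control) and 24.4 CPM (PP121) in neurons on day 38, and 140 CPM and 81.5 CPM on day 42. PAX8, PSD4, HOXD3 and FSTL5 rose in progenitors as well, by 1.84, 1.82, 1.77 and 1.89 on the log2 scale, and their interaction did not pass. GAP43 and TAC1 were lower in neurons on day 42 relative to progenitors, by 0.83 and 1.48 on the log2 scale. None of the 35 genes of glycolysis and hypoxia passed the interaction, and in progenitors 9 of them passed, with a median of -0.43.

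**Figure D5:**
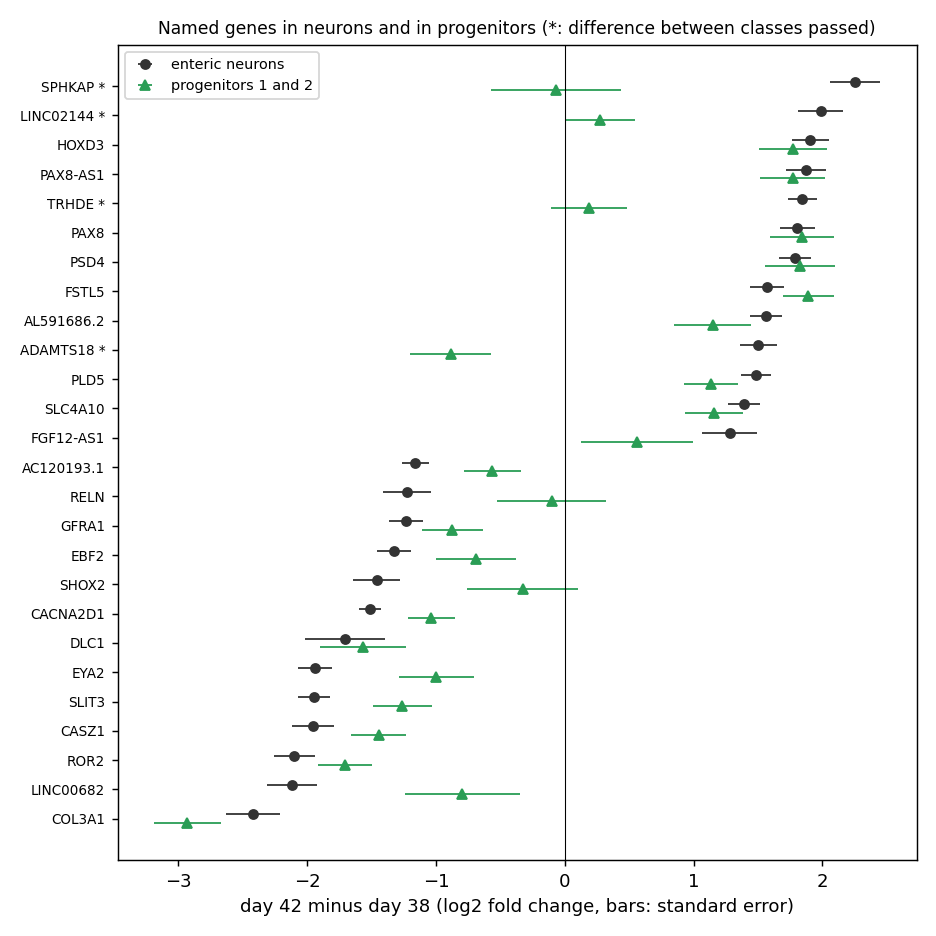
Log2 fold change between day 42 and day 38, with its standard error, in neurons (circles) and in progenitors 1 and 2 summed (triangles) for 26 of the 27 named genes tested in both; an asterisk marks genes whose difference between the classes passed. SPHKAP, LINC02144, TRHDE and ADAMTS18 have positive values in neurons and values from -0.89 to 0.27 in progenitors, whereas PAX8, PSD4 and HOXD3 have nearly equal values in both.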

How the data were processed

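Single-nucleus RNA-seq libraries of 4 ganglioid samples were analysed. The authors' methods name kallisto and bustools, and the deposited counts are whole UMIs of 36601 features by symbol. They come with an annotation per nucleus, in which the authors also give the percent of UMIs from mitochondrial and ribosomal genes, and from which class, day, phase and transmitter identity were taken. The submitters' processing notes name GRCh38, Cell Ranger and Seurat 4.0.4. The annotation release and the use of intronic reads are not given in the sources used here. For both control files the annotation's own sample name disagrees with GEO's label, which was followed.

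Counts of annotated neurons were summed per sample. Fits used edgeR 4.0.16 in R 4.3.3 (quasi-likelihood, TMM, edgeR's filter on low counts, two-sided) with terms for treatment and day, 1 residual degree of freedom and a median prior of 26.2. Log2 fold changes are day 42 minus day 38. CPM are scaled by TMM, except for sums over marker lists and for levels of a class over all 4 samples. Differences within a treatment use a prior count of 2 with no test. The block is the treatment that samples share by label. The differentiation number could not be a block, since it coincides with the day. The fit was tested on simulated data.

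Named are the 10 largest rises and 10 largest falls among genes that passed, had a mean of at least 10 CPM and did not overlap between days, the same among genes led by neurons, and in each list the 4 largest changes that passed and the 2 highest levels. Some genes that the rule names are not reported here, and they stay in the counts. The members and lists were chosen with earlier results of these data known. The labels give 2 differentiation replicates and the design text a separate differentiation per sample, so p-values cover these samples only. With 1 residual degree of freedom, the spread behind them rests mostly on edgeR's moderation over genes. Median UMIs per neuron were 7210 to 8102, and pairs of samples shared at most 3 neuron barcodes. Scrublet's threshold marked at most 1 nucleus per sample and had not worked, so the 6% of nuclei with the highest scores were left out as an alternative instead. Others were DESeq2 1.42.0, other filters, equal nuclei, thinning to 2000 UMIs, 1 phase, 1 identity, leaving out the Non-Neuronal subtype and leaving out each sample.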

Additional observations from a re-analysis of the deposited data

Results flagged for a closer look

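Differences between the days that were unequal in neurons and progenitors were flagged by the test of day by class, which 111 genes passed. Among the named genes, neurons minus progenitors was positive for SPHKAP (2.33 on the log2 scale), ADAMTS18 (2.30), LINC02144 (1.68), TRHDE (1.62), GRM5 (1.19), NRG3 (1.05), MEF2C (0.69) and LRRTM4 (0.62). It was negative for TAC1 (-1.48), GAP43 (-0.83) and NRG1 (-0.65). NRG3 did not pass in neurons (0.11) and was lower on day 42 in progenitors (-0.94). Progenitors hold 2 deposited classes, and the count was 766 with progenitor 1 alone and 195 with progenitor 2 alone. Groups of 2 samples are too small to look for single outlying samples.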

How the results depend on the processing

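The number of genes that passed was 2015, and 1284 with DESeq2's size factors, 866 after thinning, 772 in G1 nuclei, 940 in glutamatergic and 364 in GABAergic neurons (both added after seeing the data) and 453 with DESeq2's Wald test. Without the treatment block it was 0, and without 1 sample, also without the block, between 2 and 271. Over the gene lists 226 members passed, and 0 without the treatment block. The number was 142 after thinning, 132 in G1 nuclei, 85 in GABAergic neurons, 92 with the Wald test and 1 to 44 without 1 sample. The block is the design of the comparison, since each day has 1 sample of each treatment, and the cause of the loss without it was not tested. Of the 2015 genes, those that could be tested had the same sign for 1940 of 2011 without PP121 of day 38, 1982 of 2009 without the control of day 42 and 1724 of 1845 within GABAergic neurons. Without the Non-Neuronal subtype, 22 of the named genes that had passed no longer did and 114 still did. The interaction called 111 genes, and 59 with size factors, 226 with at least 10 counts in every sum, 766 and 195 with progenitor 1 or 2 alone and 0 to 6 without 1 sample. Named genes reversed in few settings: in GABAergic neurons NRXN3 (-0.36), CACNA2D3 (-0.33), SLC32A1 (-0.049), SLC6A5 (-0.43), PCDH9 (-0.19), NRG1 (0.49), RRM2 (0.087) and ASPM (0.0062); in glutamatergic neurons RRM2 (0.53) and DPP10, which had not passed (-0.33); without 1 sample DNAJB1 (-0.021 to 0.92), HSP90AB1 (-0.018 to 0.59), ZMAT3 (-0.12 to 1.19), NRG1 (-1.41 to 0.092), MT-CO3 (-1.62 to 0.065) and MT-CO1 (-1.24 to 0.041). Removal of doublets by a caller's own threshold was not run, since it marked almost none. Rare genes such as ISL1, KCNC2 and CARTPT rest on few UMIs.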

Other observations

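Of 20 p53 targets 4 rose and none fell, beside 3.68% and 5.81% of all genes. Among those that rose was CDKN1A, an inhibitor of the cell cycle. It had 9.72 CPM (control) and 2.96 CPM (PP121) on day 38, and 15.9 CPM and 8.2 CPM on day 42. CDKN1A was higher on day 42 within each treatment, and its days overlapped, as did those of the other 3, which did not pass without the nuclei of the Non-Neuronal subtype (adjusted p between 0.083 and 0.149). Genes of the unfolded protein and integrated stress response included 3 of 27 that rose, 2 that fell and 22 that did not pass, with a median of 0.08. DDIT3 and SLC7A11, targets of the integrated stress response, rose by 1.00 ± 0.177 and 1.48 ± 0.283 on the log2 scale. PDIA3, an enzyme of protein folding, fell by 0.39 ± 0.100. In DESeq2's Wald test DDIT3, SLC7A11 and PDIA3 did not pass (adjusted p of 0.0562, 0.0955 and 0.213). SLC7A11 held 40 UMIs (control) and 10 UMIs (PP121) on day 38. Of 18 heat shock genes 3 rose, beside 3.68% of all genes. Of 25 immediate early genes only JUN passed (fall by 0.48 ± 0.125, adjusted p of 0.0595 without the Non-Neuronal nuclei), beside 5.81% of all genes that fell. Cytosolic ribosomal protein genes had positive differences in 70 of 74, of which 3 passed, near the 3.68% of all genes that rose. Mitochondrial transcripts were split: MT-ND1 and MT-ND2 rose by 0.78 ± 0.161 and 0.81 ± 0.167. MT-CO1 and MT-CO3 fell by 0.55 ± 0.134 and 0.69 ± 0.160 (adjusted p of 0.1502 and 0.0923 without the Non-Neuronal nuclei). For 1 of the 13 the days did not overlap, beside 38.2% of all genes.

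Of 24 genes of cholesterol synthesis and uptake, 6 fell, none rose and 18 did not pass, beside 5.81% of all genes that fell. HMGCS1, an early enzyme of the pathway, had 433 CPM (control) and 338 CPM (PP121) on day 38, and 374 CPM and 166 CPM on day 42. SREBF2, the transcription factor of this pathway, had 509 CPM and 451 CPM on day 38, and 354 CPM and 301 CPM on day 42. The list depended on 1 sample: its median was -0.29, and 0.09 without PP121 of day 42. In progenitors 8 of the list passed, beside 2.99% of all genes there, with a median of -0.40.

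The transcript AL356413.1, which lies outside the rule for naming genes, held 76 UMIs (control) and 32 UMIs (PP121) in neurons on day 38 and 1 UMI in each sample of day 42. Mesenchymal nuclei had 14.98 CPM of it, against 1.98 CPM in neurons over all samples. Its difference between days was unequal in neurons and progenitors (adjusted p = 0.000198). EPHA7 and THRB, also outside the rule, moved in progenitors (-1.55 and 2.27 on the log2 scale) and did not pass in neurons (0.11 and 0.28).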
